A study of Mus musculus with 2 samples.

Results

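Nuclei of inhibitory neurons that carry transcripts of the transcription factor genes Tshz1 and Foxp2 were examined in 2 libraries of single nuclei from the subventricular zone (SVZ) of neonatal mice. A nucleus was counted as a Tshz1 Foxp2 nucleus when it held at least 2 unique molecular identifiers (UMIs, each standing for 1 captured transcript) of Tshz1, at least 3 of Foxp2, and at least 1 UMI of at least 2 of the genes Grm8, Pbx3, Vwc2l and Foxp4. It also had to hold at most 1 UMI of Slc17a7 and Slc17a6 together, the vesicular glutamate transporters of excitatory neurons, and at most 1 of Drd2 and Adora2a together, receptors of indirect-pathway striatal neurons. These limits selected 1513 of 28964 nuclei. Because expression chose them, the levels of the selecting genes and of every gene that follows them are given as descriptions without a test.

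The control library came from healthy mice at postnatal day 7, bred by standard means. The other came from mice with modeled intestinal perforation (MIP). Both groups are listed as assigned on postnatal day 5, with tissue taken 48 h later on postnatal day 7. In both groups the SVZ was snap frozen and stored before nuclei were isolated. The sources used here do not give the strain, sex or number of animals behind each library, so the 2 libraries are 1 sample each. Differences between them therefore carry no test of the treatment, and each interval printed is an exact 95% interval that covers counting error only.

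The SVZ lines the lateral ventricle beside the striatum. Its embryonic forerunner, the lateral ganglionic eminence, gives rise to striatal spiny projection neurons, to olfactory bulb interneurons and to the intercalated cell masses of the amygdala. Tshz1, a zinc finger transcription factor, is known from the dorsal part of that eminence and is needed by intercalated cells and by olfactory bulb interneurons. Foxp2, a forkhead transcription factor linked to vocal learning, is known from striatal projection neurons and from intercalated cells. Sets of striatal neurons that carry Tshz1, either in striosomes or among the so-called eccentric spiny projection neurons, are also known.

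Depth and makeup of the libraries bear on all values below. After filtering, the control library held 16850 nuclei and the MIP library 12114, and 104 barcode sequences occurred in both. The Tshz1 Foxp2 nuclei held 10488418 control and 5755183 MIP UMIs, with medians of 8711.5 and 7328 per nucleus. Clusters of low depth held 3759 control and 726 MIP nuclei. The libraries also differ in sex: in the Tshz1 Foxp2 nuclei, Xist, the RNA of the inactive X chromosome, stood at 1933 and 1.22 UMIs per 1000000 of all UMIs (CPM), and the Y-linked gene Eif2s3y at 0 and 207, in the control and the MIP library. Sex and treatment cannot be told apart in any comparison between them.

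The selected nuclei did not form a single group. In a clustering of all nuclei, 961 of them, or 63.5%, fell into 1 of 28 clusters, and they made up 75.7% of its 1270 nuclei. Gm45680, B020031H02Rik, Tshz1, Gm40663 and Foxp2 led that cluster, which is called the main cluster here. The other 552 nuclei were spread over 21 clusters. A cluster led by Prlr held 119 of them, a cluster led by glial genes such as Slc1a3 and Tnc held 113, and a cluster led by Ebf1 and Drd1 held 64.

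The nuclei outside the main cluster were deeper and more often marked as doublets, that is, as droplets that may hold a pair of nuclei. Inside the main cluster the median depth was 6890 UMIs for control and 5849 for MIP nuclei, with 5.36% and 1.43% of nuclei marked. Outside it the medians were 14582 and 13046 UMIs, with 45.3% and 44.8% marked. In the glia-led cluster, 85.8% of the selected nuclei were marked. A deep nucleus also passes limits of a few UMIs more easily, and the part of doublets and depth in the nuclei outside the main cluster was not tested. Values are therefore given below for the 541 control and 420 MIP nuclei inside the main cluster, called main-cluster members, beside those for all selected nuclei.

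Nuclei just inside and just outside each limit differed in where they fell. With exactly 2 Tshz1 UMIs, 39.6% of 323 nuclei lay in the main cluster, against 15.1% of the 550 that only missed the limit at 1 UMI. With exactly 3 Foxp2 UMIs the share was 15.4% of 39 nuclei, and with 2 it was 9.1% of 33. With 2 of the 4 accompanying genes detected it was 47.5% of 590, and with 1 it was 18.1% of 332. At the upper limits, 57.9% of 145 nuclei with 1 UMI of Drd2 or Adora2a lay there, and 35.1% of the 37 with 2 did.

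The transmitter genes were those of inhibitory neurons. In main-cluster members Gad1, a glutamate decarboxylase that makes GABA, stood at 302 in control and 319 in MIP nuclei, in CPM here and throughout. Gad2, its second form, stood at 320.1 and 356, and Slc32a1, the vesicular GABA transporter, at 106 and 99.98. At an equal depth of 4000 UMIs per nucleus, Gad1 was detected in 66.4% of control and 62.7% of MIP main-cluster members, and Gad2 in 70.7% and 71.4%. Slc17a7 and Slc17a6, which the limits kept down, stood between 3.9 and 5.6 in all selected nuclei, against 24.3 to 33.6 in nuclei outside all gates. None of the tyrosine hydroxylase, parvalbumin, vasoactive intestinal peptide and choline acetyltransferase genes Th, Pvalb, Vip and Chat reached 10 CPM in main-cluster members.

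The genes of the gate, listed here as the values that chose the nuclei, were as follows in main-cluster members. Tshz1 stood at 809 in control and 879 in MIP nuclei, against 60.9 and 42.2 in nuclei outside all gates. Foxp2 stood at 3651 and 3622, against 393 and 371. Grm8, a presynaptic metabotropic glutamate receptor, stood at 1430.0 and 1849.5, against 259.6 and 303, and it was detected in 76.9% and 83.3% of the nuclei. The homeodomain gene Pbx3 was nearly always present, with a UMI in 99.6% and 99.3% of nuclei and 3402 and 2786 CPM. Vwc2l, a secreted protein of the von Willebrand factor C family, stood at 410.3 and 358, and Foxp4, a relative of Foxp2, at 153 and 161. Among the 28 clusters, the main cluster had the highest level of each of these 6 genes, with Tshz1 at 746 there and at 320 in the next cluster, which neuroblast genes led.

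To see where these nuclei differ from neighbouring inhibitory neurons, all selected nuclei were set beside gates for Drd1 spiny projection neurons (696 control and 407 MIP nuclei), Drd2 spiny projection neurons (1056 and 623) and Lhx6 Nxph1 interneurons (246 and 157). Of 9491 genes with enough UMIs, 89 were at least 1.5-fold above all 3 gates in both libraries, which is 0.938%. Of 5604 genes, 16 were as far below all 3, which is 0.286%. With main-cluster members alone, 150 genes were above and 140 below. Fewer genes then reached the UMI minimum for the first count, so it is not a share of the same 9491. Selected nuclei were left out of all 3 gates, which also held down Tshz1, Foxp2 and genes that follow them there. Since the gates chose the nuclei, these shares describe the selection.

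A pair of neighbouring long noncoding RNA genes was among the genes farthest above the gates. B020031H02Rik, a lincRNA in the GENCODE annotation at chr8:11948339-12000216 on the plus strand (mm10), was at 253 in control and 247 in MIP nuclei in main-cluster members. It stood at 4.98 and 3.33 in the Drd1 gate, at 8.16 and 5.93 in the Drd2 gate and at 24.0 and 16.02 in the Lhx6 Nxph1 gate. Gm45680, a lincRNA at chr8:11945465-11948297 on the minus strand, was at 304 and 219 in main-cluster members. It stood at 5.07 and 3.13 in the Drd1 gate, at 8.72 and 5.04 in the Drd2 gate and at 31.0 and 13.3 in the Lhx6 Nxph1 gate. Neither gene's level in any gate came near that of main-cluster members, and all selected nuclei stood above each gate by at least 2.45 log2 units for B020031H02Rik and 2.37 for Gm45680. The main cluster ranked first among the 28 clusters for both, at 234 against 65.2 in the next cluster for B020031H02Rik and at 261 against 81.4 for Gm45680.

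The 2 noncoding genes lie head to head, with 41 bases between their annotated starts, and their first exons are shown because both transcripts start from this one interval. They are read from the mm10 genome at the GENCODE exon positions, each 5′ to 3′ on its own strand. The first covers chr8:11948339-11948401 on the plus strand, and the second chr8:11948245-11948297 on the minus strand.
B020031H02Rik exon 1: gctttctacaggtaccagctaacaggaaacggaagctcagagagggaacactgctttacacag
Gm45680 exon 1: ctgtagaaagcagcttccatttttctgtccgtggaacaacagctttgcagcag
The first exon of B020031H02Rik is 63 bases of a 3673-base transcript, and that of Gm45680 is 53 bases of a 214-base transcript. The annotations of these 2 genes do not overlap. No source used here states whether counting used strand, so for genes that do overlap, reads of a gene and of its antisense neighbour cannot be told apart.

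Some of the other genes that stood above all 3 gates are neighbours of the selecting genes on the chromosome. Zadh2, a reductase gene 356 bases from Tshz1, was at 76.5 in control and 56.6 in MIP nuclei in main-cluster members and between 4.12 and 10.7 in the 3 gates. Mdfic, an inhibitor of MyoD-family transcription factors, lies at chr6:15720661-15802169 on the plus strand, 278683 bases past the end of Foxp2 at chr6:14901349-15441977. It was at 36.3 and 20.1 in main-cluster members and between 0.391 and 2.97 in the 3 gates. These levels are low: Mdfic rests on 201 and 88 UMIs over all selected nuclei of the control and the MIP library.

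The remaining genes of the top 15 have varied roles. Gm40663, a noncoding gene at chr13:7139127-7175925 on the minus strand, was at 154 in control and 74.5 in MIP nuclei. March3, a ubiquitin ligase gene, was at 402 and 407 and its antisense neighbour Gm15345 at 111 and 112. Sema5b, a semaphorin that guides axons, was at 279 and 243, and the 3 gates stood between 43.8 and 56.8. Chst9, a sulfotransferase that modifies sugar chains, was at 28.1 and 59.5, Lix1 at 91.1 and 86.7, and Eya2, a transcription coactivator, at 31.8 and 35.8. Slc26a7, an anion exchanger, rests on only 91 and 84 UMIs over all selected nuclei. Gm40663, March3, Gm15345 and Zadh2 had their highest level of all clusters in the main cluster, while Eya2 stood at 34.2 there and at 548 in its highest cluster. Without marked doublets all 15 stayed at least 1.5-fold above the 3 gates, and with main-cluster members alone 13 did, the exceptions, Mdfic and Slc26a7, being under the minimum of 60 UMIs.

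Genes of known cell classes were then read across the same gates, with all selected nuclei counted. Of 34 measured transcription factors of the lateral ganglionic eminence, 7 stood above all 3 gates, among them Tshz1, Foxp2, Foxp4, Pbx3, Pax6 and Casz1. Of 9 genes known from intercalated cells of the amygdala, 4 did, namely Foxp2, Tshz1, Pax6 and Pbx3, of which all but Pax6 belong to the selection. Of 7 genes of eccentric spiny projection neurons, 5 did: Casz1, Otof, Pcdh8, Adarb2 and Tshz1. Of 7 striosome genes only Sema5b did, and of the 13 pan-spiny, 8 matrix, 5 direct-pathway and 4 indirect-pathway genes measured none did. Of all genes measured, 0.938% stood above all 3 gates, so none in lists this short says little about the nuclei. The spiny gates were also chosen on pathway genes, and the selection itself limited Drd2 and Adora2a.

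The genes of the eccentric list other than Tshz1 took no part in the selection. Casz1, a zinc finger transcription factor, was at 105 in control and 69.2 in MIP nuclei in main-cluster members, at 4.89 and 4.69 in the Drd1 gate and at 13.4 and 11.2 in the Drd2 gate. Otof, the calcium sensor otoferlin, was at 65.4 and 78.5, against 24.5 and 30.9 in the Drd1 gate and 17.7 and 20.4 in the Drd2 gate. Pcdh8, an adhesion protein of the protocadherin family, was at 54.2 and 67.4, against 7.19 and 6.85 in the Drd1 gate and 9.70 and 8.07 in the Drd2 gate. Adarb2, an RNA-binding relative of the RNA editing enzymes, was at 3251 and 2782, against 698 and 718 in the Drd1 gate, 438 and 357 in the Drd2 gate and 1295 and 1377 in the Lhx6 Nxph1 gate. The main cluster came 3rd of 28 for Adarb2, at 2939 against 4377 in its highest cluster. For these 4 genes neither library's spiny gates reached the level of main-cluster members. Pax6 was low in main-cluster members, at 15.5 and 32.3 on 70 control and 90 MIP UMIs, and the main cluster ranked only 15th of 28 for it. Subcluster 5 of the selected nuclei, described below, held 213 Pax6 UMIs over both libraries, and 79.7% of its nuclei were marked as doublets. The place of Pax6 in the lists, which counted all selected nuclei, thus rests in large part on nuclei outside the main cluster.

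**Figure D1:**
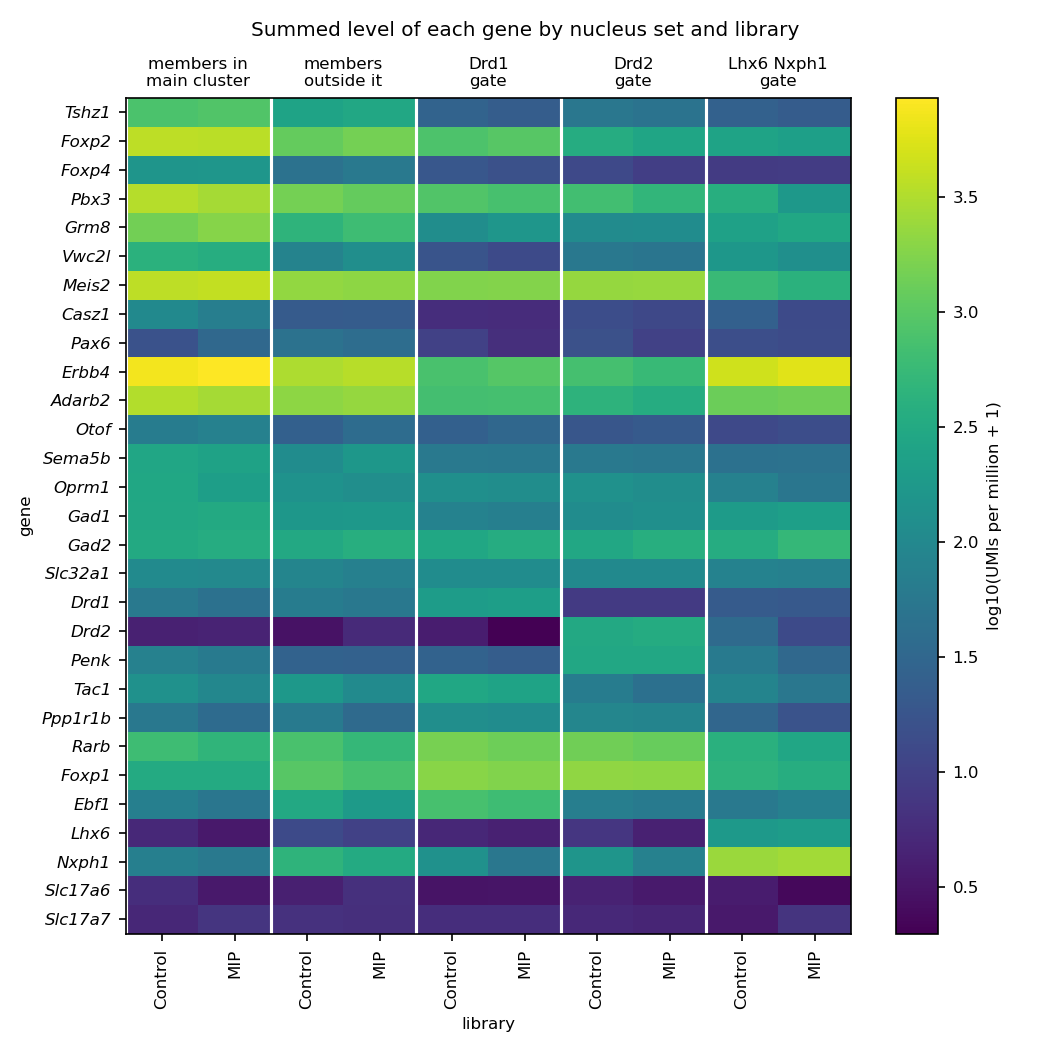
Heat map of summed gene levels, with genes in rows, the control and the MIP library of each set of nuclei in columns, and colour giving log10 of CPM plus 1. Tshz1, Casz1 and Erbb4 were highest in main-cluster members, while Foxp1 and Rarb were lower there than in both spiny gates.

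Spiny projection genes were present at reduced levels. Foxp1, a forkhead factor of spiny neurons, was at 334 in control and 330.4 in MIP nuclei in main-cluster members, against 1959 and 1745 in the Drd1 gate and 2141 and 2058 in the Drd2 gate. Pde10a, a striatal phosphodiesterase, was at 814 and 692, against 2384 and 2320.2 in the Drd1 gate and 1932 and 2109.9 in the Drd2 gate. Rarb, a retinoic acid receptor, was at 629 and 471, against 1556 and 1337 in the Drd1 gate and 1386 and 1212 in the Drd2 gate. Both spiny gates stood above main-cluster members for each of these 3 genes, in both libraries. Meis2, a homeodomain factor of the same lineage, went the other way, at 3722 and 4018 against 1753 and 1793 in the Drd1 gate and 2280.4 and 2361 in the Drd2 gate. Ppp1r1b, which encodes the dopamine signalling protein DARPP-32, was at 55.5 and 35.5, against 122 and 115 in the Drd1 gate and 92.2 and 84.7 in the Drd2 gate.

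Drd1, the dopamine receptor of direct-pathway neurons, was present in a minority of the nuclei. Its level in main-cluster members was 56.6 in control and 44.1 in MIP nuclei, against 198 and 213 in the gate that was chosen for it and 7.12 and 7.19 in the Drd2 gate, which was limited to 1 UMI. At 4000 UMIs per nucleus, 19.0% of control and 14.5% of MIP main-cluster members held a Drd1 UMI, against 61.3% and 64.9% in the Drd1 gate and 2.78% and 2.25% in the Drd2 gate. Without thinning, 31.4% and 20.7% of main-cluster members held one, against 11.0% and 9.15% of the deeper Drd2 gate, whose median depths were 12965.5 and 10593 UMIs. The peptide genes of both pathways were detected. Tac1, the substance P precursor of direct-pathway neurons, was at 134 and 93.2, and Penk, the enkephalin precursor of indirect-pathway neurons, at 77.6 and 61.3. At 4000 UMIs, Tac1 was found in 38.6% and 28.3% of main-cluster members, against 64.0% and 61.6% in the Drd1 gate and 32.5% and 24.7% of nuclei in no gate. Penk was found in 24.6% and 21.5%, against 60.5% and 64.9% in the Drd2 gate and 18.6% and 14.6% of nuclei in no gate. Both genes stood nearer to the nuclei in no gate than to the gate of their own pathway. Detection of Tac1 counted towards the Drd1 gate and detection of Penk towards the Drd2 gate, so the selection raised those gate shares. The nuclei in no gate include many from clusters led by spiny neuron genes, so they are not a background free of spiny neurons. Of 2614 nuclei in a cluster led by Drd2 and Adora2a, 1193 were in the Drd2 gate. Of 2421 nuclei in the cluster led by Ebf1 and Drd1, 747 were in the Drd1 gate. Oprm1, the mu opioid receptor known from striosomes, was at 288 and 212, above both spiny gates, which stood between 119 and 136.

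Interneuron and migrating-neuron genes divided. Lhx6, which marks interneurons of the medial ganglionic eminence, was at 4.20 in control and 2.51 in MIP nuclei in main-cluster members and at 181 and 203 in the gate chosen for it. Erbb4, a neuregulin receptor prominent in interneurons, was at 7299 and 8542, against 4673 and 5802 in the Lhx6 Nxph1 gate and 774 and 927 in the Drd1 gate. Among the 28 clusters the main cluster came only 2nd for Erbb4, at 7237 against 8161 in a cluster led by Nos1 and Nxph2. That cluster held 194 nuclei of the Lhx6 Nxph1 gate. Of 12 genes of the olfactory bulb and of migrating neurons, 2 stood above all 3 gates. Sox4, a transcription factor of young neurons, was at 162 and 128, and Igfbpl1, another gene of young neurons, at 122 and 101. The main cluster ranked 7th of 28 for both. Over all selected nuclei, no measured GABA receptor gene (14) and no ionotropic glutamate receptor gene (16) stood above all 3 gates. The share of all genes measured was 0.938%, so none in lists of this length is not a result about receptors.

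Among receptors and channels, few genes stood above all 3 gates when all selected nuclei were counted, beside 0.938% of all genes measured. These lists were not counted for main-cluster members alone. Grm8 was the only 1 of 6 metabotropic glutamate receptor genes above all 3 gates, and it was a selecting gene. Ntsr1, a neurotensin receptor, was the only 1 of 9 opioid and peptide genes, at 15.5 in control and 14.0 in MIP nuclei. Kcnh5 was the only 1 of 26 voltage-gated potassium channel genes, at 90.2 and 126. Kcnd2, a potassium channel of dendrites, was at 6383 and 7249.7, against 3019 and 3223 in the Drd1 gate, and the main cluster was the highest of the 28 for it. It missed the 1.5-fold limit over all selected nuclei.

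The 16 genes below all 3 gates included Gria3, an AMPA-type glutamate receptor subunit. Gria3 was at 106 in control and 94.6 in MIP nuclei in main-cluster members, against 356 and 431 in the Drd1 gate, 372 and 435 in the Drd2 gate and 350.4 and 461 in the Lhx6 Nxph1 gate. Kctd8, an auxiliary subunit of GABA-B receptors, came first of the 16 by its smallest gap, since all selected nuclei lay at least 1.13 log2 units under each gate. It was at 80.7 and 51.2 in main-cluster members, against 363 and 213 in the Drd1 gate, 367 and 222 in the Drd2 gate and 344 and 195 in the Lhx6 Nxph1 gate. Neither gene's levels in main-cluster members reached those of any gate. The cell adhesion gene Cntn4, the nuclear receptor gene Rora, the thyroid hormone receptor gene Thrb, the transcription regulator Lmo3 and the ephrin receptor gene Epha7 were also among them.

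Markers of other cells were not at 0 in these nuclei. The summed level of 9 astrocyte markers was 510 in control and 430 in MIP main-cluster members, 1188 and 916 in all selected nuclei, and 1775 and 1663 in nuclei outside all gates. For 8 markers of differentiating oligodendrocytes the sums were 66.3 and 48.7, then 259 and 113, then 304 and 227. For 8 markers of cycling progenitors they were 47.7 and 22.9, then 101 and 55.8, then 188 and 102. Microglia markers summed to 113 and 85.6 in main-cluster members and to 195 and 189 outside all gates. Main-cluster members thus held less of these 4 lists than all selected nuclei or the nuclei outside all gates. The 6 ependymal markers were low and differed in order, at 23.0 and 15.1 in main-cluster members and 19.2 and 18.2 in all selected nuclei. The part of free RNA and doublets in what they did hold was not tested.

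Within the selection, 9 subclusters were found when the selected nuclei were clustered alone. Subclusters 0, 1, 2, 4 and 7, with 146, 190, 271, 180 and 118 nuclei, lay almost wholly in the main cluster (97.2% to 100% of their nuclei). Subcluster 3 (52 nuclei, led by Mob3b and Etv1) lay mostly in the neuroblast-led cluster. Subcluster 5 (187 nuclei, led by Bcas1 and Slc1a3) had 79.7% of its nuclei marked as doublets. Subclusters 6 (157 nuclei, with Cntnap4 and Dpp10 among its leading genes) and 8 (212 nuclei, led by Ebf1) also lay mostly outside the main cluster, with 33.8% and 29.2% marked. All stay numbered, since their leading genes also defined them.

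**Figure D2:**
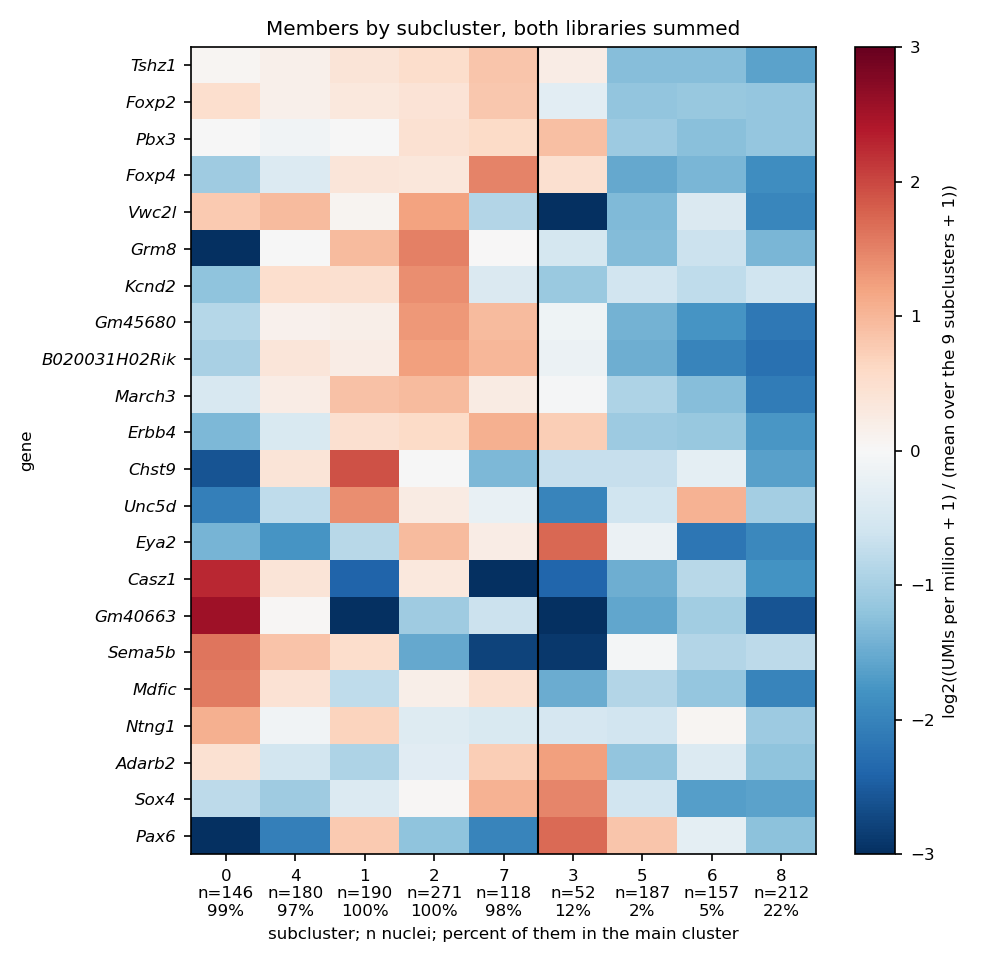
Heat map of the selected nuclei by subcluster, both libraries summed, with colour giving the log2 ratio of each gene's CPM to its mean over the 9 subclusters. The 5 subclusters left of the line lie in the main cluster. Subcluster 0 was highest for Casz1 and Gm40663 and lowest for Grm8, and subcluster 2 was highest for Grm8.

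The subclusters of the main cluster differed in Grm8 and Casz1. Grm8 stood at 119, 2224, 3253, 1138 and 1157 CPM in subclusters 0, 1, 2, 4 and 7, counted over both libraries, so subcluster 0 had little of a gene that helped to choose the nuclei. Casz1 stood at 295, 10.7, 75.7, 80.0 and 3.67 in the same order, and Gm40663 at 490.1, 3.56, 39.5, 85.6 and 53.2. Subcluster 0 was thus highest for both. Sema5b followed Casz1 only in part, at 596, 281, 66.8, 356 and 27.5. Subcluster 0, whose leading genes also include Spon1, Alk and Necab1, therefore combined high Casz1 and Sema5b with low Grm8.

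Subclusters 1, 2 and 7 had their own leading genes. Chst9 and Kcnh5 led subcluster 1, and Chst9 stood at 4.06, 114, 29.3, 39.1 and 11.0 in subclusters 0, 1, 2, 4 and 7. Unc5d, a netrin receptor that guides axons, was also highest in subcluster 1, at 148, 1627, 733, 363 and 524 in that order. Gm45680, Grm8 and B020031H02Rik led subcluster 2, in which Kcnd2 was highest, with 2081, 6696, 12609.9, 6860.4 and 3585 across the 5. Of the 5, subcluster 7 was highest for Foxp4, at 70.6, 191, 188, 112 and 422, and for Sox4, at 110.4, 142, 197, 90.5 and 396. Erbb4 and Adarb2 were highest of the 5 there too, at 15714 and 6060.1, while Sema5b and Vwc2l were lowest.

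The 2 main selecting genes varied less among these subclusters. Tshz1 stood at 738, 916, 1022, 778 and 1252 and Foxp2 at 4207, 3699.5, 3931, 3297 and 5231 in subclusters 0, 1, 2, 4 and 7. Both were highest in subcluster 7, which also had the lowest median depth of the 5, at 4183.5 UMIs. The limits ask for a fixed number of UMIs, so a shallow nucleus passes only at a higher level.

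The share of Tshz1 Foxp2 nuclei was close to equal in the libraries. They made up 892 of 16850 control nuclei, or 5.29% (exact Clopper-Pearson 95% interval 4.96 to 5.64), and 621 of 12114 MIP nuclei, or 5.13% (4.74 to 5.53). The log2 ratio of MIP to control was -0.05 (-0.20 to 0.10). Which nuclei are counted moves this ratio to either side of 0. Without the low-depth clusters it was -0.32 (-0.47 to -0.17), and with all nuclei of the main cluster it was 0.28 (0.12 to 0.44), at 4.02% and 4.89%.

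**Figure D3:**
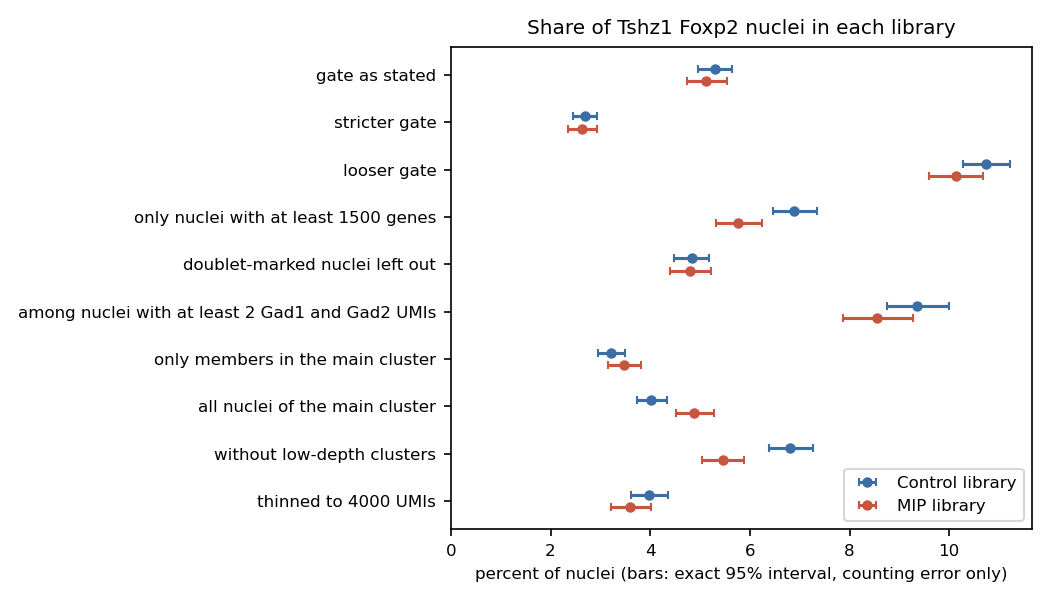
Share of Tshz1 Foxp2 nuclei among all nuclei (percent, axis from 0) in the control and the MIP library under each way of counting them, with exact 95% intervals for counting error. The libraries were at 5.29% and 5.13% under the stated limits.

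MIP and control nuclei were next compared gene by gene, on summed UMIs as a share of the total. A gene was counted as higher or lower when it differed by at least 1.5-fold and held at least 60 UMIs in the higher library. Over all selected nuclei, 180 of 11893 genes were higher in the MIP library, which is 1.51%, and 1558 were lower, which is 13.1%. In main-cluster members, 235 of 9150 genes were higher, which is 2.57%, and 964 were lower, which is 10.5%. The median log2 ratio of all genes was -0.10 over all selected nuclei and -0.06 in main-cluster members. Of the genes called over all selected nuclei and measured in main-cluster members, 99 of 129 higher and 623 of 782 lower were called there too. Part of this overlap is built in, since main-cluster members are among the selected nuclei.

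The genes with the firmest ratios over all selected nuclei were in part those of nuclei outside the main cluster. Bnc2, a zinc finger gene, held 81 and 142 UMIs in control and MIP nuclei, for a log2 ratio of 1.68 (1.27 to 2.09), but 8 and 1 in main-cluster members. Ttr, the choroid plexus protein transthyretin, went from 1.46 (1.02 to 1.92) over all selected nuclei to -1.03 (-1.94 to -0.20) in main-cluster members. Both genes thus changed sign with the nuclei counted. Among the lower genes, the oligodendrocyte gene Bcas1 held 711 and 105 UMIs, of which 693 and 103 lay outside the main cluster, and Mobp, Neu4 and 9630013A20Rik likewise held most of theirs there. Flt1, an endothelial receptor gene, held 72 and 0 UMIs, and 66 of the 72 lay outside the main cluster.

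Several higher genes were shared by both sets of nuclei, although main-cluster members are part of all selected nuclei and the sets are not independent. Stat3, the transcription factor activated by interleukin 6 family cytokines, held 104 and 165 UMIs in control and MIP main-cluster members, a log2 ratio of 1.36 (1.0 to 1.73). Over all selected nuclei its ratio was 1.22 (0.99 to 1.45). Per2, a repressor of the circadian clock, held 42 and 63 UMIs, with 1.28 (0.70 to 1.88) in main-cluster members and 1.37 (0.99 to 1.76) over all selected nuclei. Fkbp5, a co-chaperone induced by glucocorticoids, stood at 0.88 (0.64 to 1.12) and 1.02 (0.85 to 1.18). In the selected nuclei outside the main cluster, Stat3 was at 1.14 (0.84 to 1.44), Per2 at 1.45 (0.95 to 1.97) and Fkbp5 at 1.13 (0.91 to 1.35). The spiny gates gave ratios of like size, with 1.17 (0.92 to 1.42) and 1.46 (1.25 to 1.66) for Stat3, 0.95 (0.57 to 1.33) and 1.40 (1.07 to 1.74) for Per2, and 1.05 (0.87 to 1.23) and 0.98 (0.84 to 1.11) for Fkbp5 in the Drd1 and the Drd2 gate. Slc16a14, of the monocarboxylate transporter family, Hspa14, an Hsp70 family gene, and Mvp, the major vault protein gene, were also higher in both sets, at 1.31, 1.27 and 1.27 in main-cluster members. In the same order they were at 0.64, 0.79 and 0.64 in the Drd1 gate and at 0.79, 0.99 and 0.64 in the Drd2 gate.

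In main-cluster members the naming rule was applied again after their values had been seen. Lin54, a subunit of a cell cycle gene repressor complex, held 48 and 95 UMIs, a log2 ratio of 1.68 (1.17 to 2.21). Elmsan1, which belongs to a histone deacetylase complex, held 57 and 105 UMIs, with 1.58 (1.10 to 2.07). Ireb2, the iron regulatory protein, and Bmt2, a sensor of S-adenosylmethionine, were at 0.95 and 0.95. For these genes the MIP library was the higher one with counting intervals clear of 0, but the rule ranked genes by that bound. The ratios were not particular to these nuclei. In the Drd1 and Drd2 gates Lin54 was at 0.98 and 1.17 and Elmsan1 at 0.84 and 0.84. Bmt2 was at 0.71 and 0.73 there and Ireb2 at 0.41 and 0.55. In nuclei in no gate, Lin54, Elmsan1, Bmt2 and Ireb2 were at 0.90, 0.78, 0.80 and 0.62.

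The ratios of other genes rested on 1 subcluster or moved with the makeup of the subclusters. Ndst4, an enzyme that modifies heparan sulfate, was at 1.21 (0.76 to 1.66) in main-cluster members, where it held 73 and 104 UMIs. Of these, 14 and 73 lay in subcluster 7, and without that subcluster its ratio was -0.22. Tafa1, a secreted protein, was at 0.91 (0.54 to 1.29), but at 0.33 and under the 1.5-fold limit when the ratio was pooled within subclusters. Chst9 was at 1.08 (0.74 to 1.43) in main-cluster members, at 0.60 within subclusters and at 0.48, under the limit, without subcluster 1. In the Lhx6 Nxph1 gate it was at 1.0 (-0.17 to 2.18), and in the Drd1 and Drd2 gates at -0.66 (-1.64 to 0.22) and -0.88 (-1.61 to -0.20). Cpne4, a calcium-dependent membrane-binding protein, was at 1.09 (0.89 to 1.29) and at 0.72 within subclusters, and Epha4, an ephrin receptor of axon guidance, at -1.28 (-1.53 to -1.03) and -0.78. Of 9147 genes measured, 231 were higher and 915 lower within subclusters. Stat3 and Per2 were at 1.43 and 1.34 within subclusters, no lower than without that step.

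**Figure D4:**
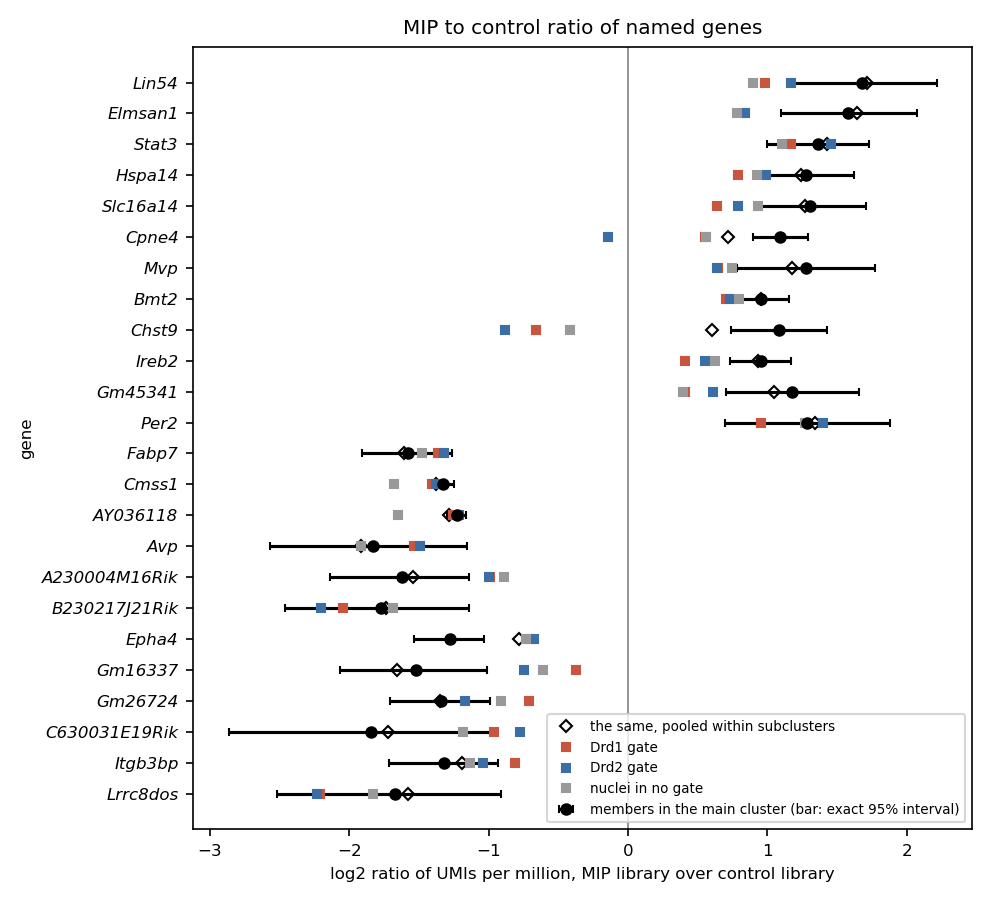
Log2 ratio of the MIP to the control library for the 24 genes named in main-cluster members (black, with exact 95% counting intervals; open diamonds, pooled within subclusters), beside the Drd1 gate, the Drd2 gate and nuclei in no gate. Stat3 and Per2 lie above 0 and Fabp7 below 0 in all of these sets.

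The lower genes of main-cluster members were led by abundant RNAs that were lower elsewhere as well. AY036118, a noncoding RNA, held 8726 and 2296 UMIs at a log2 ratio of -1.23 (-1.30 to -1.16), and the coding gene Cmss1 held 6870 and 1687 at -1.33 (-1.41 to -1.25). Fabp7, a fatty acid binding protein of radial glia, held 470 and 97 UMIs at a log2 ratio of -1.58 (-1.91 to -1.26), against ratios of -1.36 (-1.64 to -1.09) and -1.32 (-1.53 to -1.12) in the Drd1 and Drd2 gates. Avp, the vasopressin precursor of hypothalamic neurons, held 121 and 21 UMIs at a log2 ratio of -1.83 (-2.57 to -1.15), against -1.53 (-2.27 to -0.86) and -1.49 (-2.04 to -0.99). Epha4 held 653 and 166 UMIs, and its ratios were -0.71 (-0.80 to -0.61) and -0.68 (-0.76 to -0.59) in the same gates. Fabp7 and Avp were lower in both spiny gates too, and the part of free RNA in this was not tested.

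The marker genes, whose levels the limits set in part, and the identity lists were compared next. None of the 5 marker genes Tshz1, Foxp2, Grm8, Pbx3 and Vwc2l was at least 1.5-fold higher or lower in main-cluster members, where they stood at 0.12, -0.01, 0.37, -0.29 and -0.20. None of 14 GABA receptor genes, 16 ionotropic glutamate receptor genes, 17 neuronal maturation genes or 27 voltage-gated potassium channel genes was called in either direction. Of 39 transcription factors of the lateral ganglionic eminence, 2 were higher (Pax6 and Tshz3) and 11 lower, for a median of -0.29. Tshz3 rests on 16 control and 15 MIP UMIs, at 0.60 (-0.51 to 1.71), with an interval that spans 0. Among the lower ones were Egr3, at -1.06 (-1.91 to -0.29), and Casz1, at -0.60 (-0.85 to -0.36). Within subclusters Egr3 was at -0.94, but Casz1 was at -0.13 and under the limit, and in subcluster 0, which it leads, its level was 298 in control and 288 in MIP nuclei. Pax6 was at 1.06 in main-cluster members and at -0.09 without subcluster 1. Of 37 axon guidance genes, 4 were higher, Unc5d among them at 0.62 (0.54 to 0.70), and 4 lower. Within subclusters Unc5d was at 0.33, under the limit. Of 20 opioid and peptide genes, 1 was higher, the cholecystokinin receptor gene Cckbr, and 6 were lower, with a median of -0.48. Of 13 pan-spiny genes, Bcl11b and Ppp1r1b were lower and none higher, with a median of -0.42, and within subclusters Ppp1r1b was at -0.50, under the limit. Lists used a lower minimum of 20 UMIs, counted over both libraries together. For comparison, 555 of the 13324 genes measured at that minimum were higher in main-cluster members, or 4.17%, and 2130 lower, or 15.99% (median -0.09).

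Several genes of the circadian clock were higher in the MIP library. In main-cluster members, 5 of 19 clock genes were higher (Per2, Cry1, Per1, Cry2 and Bhlhe41) and 1, Per3, was lower, with a median of 0.29. Among all genes measured there, 2.57% were higher and 10.5% lower at the larger UMI minimum of the gene-by-gene comparison. The shares at the minimum used for lists are given above with the identity lists. Bhlhe41 held 16 control and 15 MIP UMIs, at 0.60 (-0.51 to 1.71), with an interval that spans 0. It was at 0.54 within subclusters and at -0.28 without subcluster 1. Cry2, a clock repressor, was at 0.81 (0.52 to 1.11), and Per3 at -0.59 (-1.47 to 0.23), with an interval that spans 0. Over all selected nuclei 6 of 19 were higher and none lower, with a median of 0.20, and in the Drd1 gate 6 were higher and 1 lower, with 0.28. The hour of dissection is not given.

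Lists of glucocorticoid and inflammatory genes were read in the same way. Of 17 glucocorticoid response genes measured in main-cluster members, 3 were higher and 4 lower (median -0.18), although Fkbp5 was higher. Of 7 genes of the Stat3 and acute phase list, 1 was higher, which was Stat3. None of 6 interferon response genes was higher or lower. The shares of all genes given for the clock list in main-cluster members apply to these lists too. Over all selected nuclei 2 of 21 glucocorticoid genes were higher, Fkbp5 and Per1, and 1 lower, Nr3c2, the mineralocorticoid receptor gene, at -0.59 (-0.75 to -0.44). There, 1 of 8 NF-kB genes was higher, which was Rel, and none of 9 interferon genes was higher while 4 were lower. Over all 15876 genes measured in the selected nuclei at the same minimum, 3.09% were higher and 18.4% lower.

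Housekeeping lists lay on the lower side. Of 23 oxidative phosphorylation genes, 15 were lower and none higher in main-cluster members, with a median of -0.63. Of 22 cytosolic ribosomal protein genes, 15 were lower and none higher, with a median of -0.62. Of 18 cholesterol synthesis genes, 9 were lower and none higher, with a median of -0.60. Of all genes measured in main-cluster members, 2.57% were higher and 10.5% lower at the larger UMI minimum of the gene-by-gene comparison. The shares at the minimum used for lists are given above with the identity lists. In the Drd1 gate the medians of the 3 lists were -0.59, -0.57 and -0.50, beside -0.13 for all genes measured there. Examples over all selected nuclei were Ndufa1, a subunit of complex I of the respiratory chain, at -1.12 (-1.43 to -0.82), Rplp1, a ribosomal stalk protein, at -0.79 (-0.92 to -0.66), and Nsdhl and Fdft1, enzymes of sterol synthesis, at -2.05 (-2.76 to -1.40) and -0.85 (-1.11 to -0.59).

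**Figure D5:**
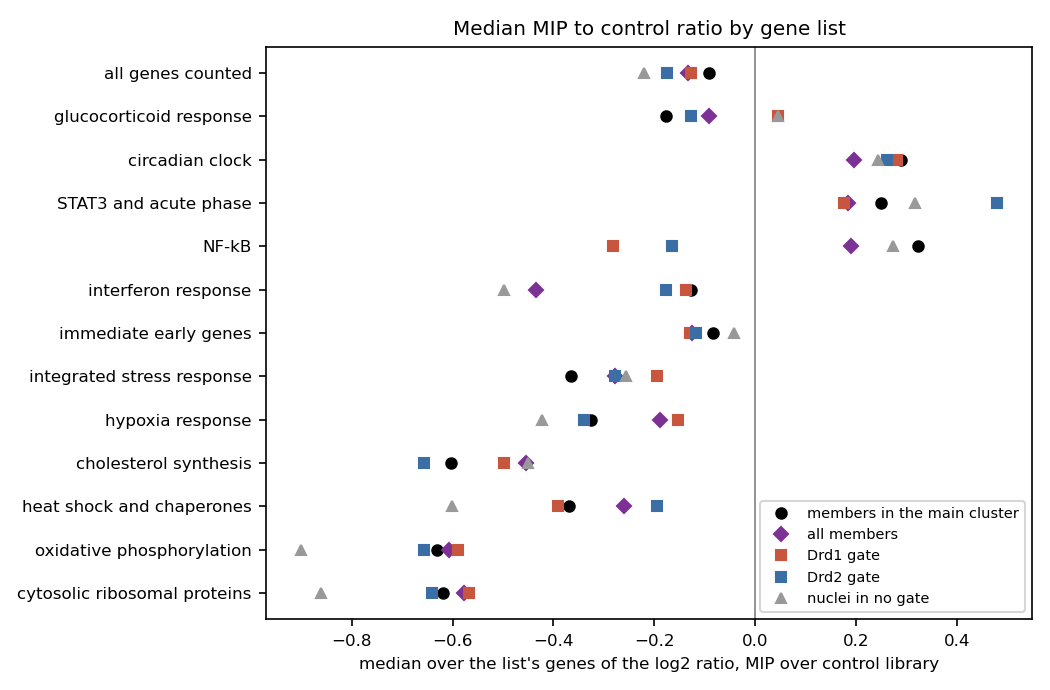
Median log2 ratio of the MIP to the control library over the genes of each response list, in main-cluster members (black), all selected nuclei (diamonds), the Drd1 and Drd2 gates (squares) and nuclei in no gate (triangles). The clock list lies above 0 and the oxidative phosphorylation, ribosomal protein and cholesterol lists below it.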

How the data were processed

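Nuclei of snap-frozen mouse SVZ were measured in 1 control and 1 MIP library. The authors deposited UMI counts for each gene in each barcode, not normalized, and the submitters' processing notes name Cell Ranger 5.0.1 and mm10. Use of strand and the barcode filter are not stated. Barcodes under 500 genes or over 5% mitochondrial UMIs were left out (0 control and 204 MIP for genes, 114 and 48 for mitochondrial UMIs). Scrublet's automatic threshold marked 0 barcodes, so the top-scoring 0.8% per 1000 barcodes were marked as doublets (13.5% and 9.69%) and kept. All nuclei were clustered with Scanpy 1.11.5 on 3000 variable genes, 40 principal components and Leiden clustering at resolution 1, and the selected nuclei alone on 1000 genes, 15 components and resolution 0.5.

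UMIs were summed per library and set of nuclei. Ratios have exact Poisson intervals, shares Clopper-Pearson intervals, both for counting error only. Called genes differed at least 1.5-fold with at least 60 UMIs (20 for lists). Shares of nuclei with a UMI were compared after thinning to 4000 UMIs. On Poisson counts for 11684 genes, drawn from the summed profile of the selected nuclei, intervals held the true ratio for 95.9% of unchanged genes. They held it for 92% of genes changed 3-fold, and 44% of genes changed 1.5-fold were called. Such draws hold no spread between nuclei, so they check the calculation only. Comparison gates asked for Drd1 (at least 2 UMIs), Drd2 with Adora2a (3), or Lhx6 (2) with Nxph1 (3), with genes of other classes limited. The Drd1 gate also asked for at least 2 detected genes of Tac1, Pdyn, Isl1 and Ebf1. The Drd2 gate asked for at least 2 of Penk, Gpr6, Adora2a and Sp9. Selected nuclei were left out of every comparison gate. The text names the gate genes, genes of identity lists, the 15 genes highest against the gates, and the 12 genes highest and the 12 lowest in MIP nuclei by the interval bound nearest to no change; some are not reported here. For main-cluster members the same rule was applied after their values were seen. Members and lists were chosen with earlier results of these data known. Alternatives changed the gate, the doublet and depth filters, the scaling, the UMI minimum and the set of nuclei. Gene positions and exon sequences are from GENCODE M21 and mm10. Tools were Python 3.11.15, NumPy 2.4.6, SciPy 1.17.1 and pandas 2.3.3.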

Additional observations from a re-analysis of the deposited data

Results flagged for a closer look

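Genes named for their ratio between the libraries were flagged where a comparison gate had a ratio of the other sign with a counting interval clear of 0. With 1 library per group, these differences were not tested.

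Bnc2, a zinc finger gene, had a log2 ratio of MIP to control of 1.68 over all Tshz1 Foxp2 nuclei, against -1.84 (-4.22 to -0.10) in the Drd2 gate, where it rests on 22 control and 3 MIP UMIs, and 1.83 (1.16 to 2.52) in the Drd1 gate, on 31 and 52 UMIs. Ndst4, an enzyme gene of heparan sulfate modification, was at 1.30 over all Tshz1 Foxp2 nuclei, with the main-cluster part of this in 1 subcluster, against -0.20 (-0.35 to -0.04) in the Lhx6 Nxph1 gate. Cpne4, a copine gene known from ventral striatal neurons, was at 0.98, against -0.14 (-0.27 to -0.02) in the Drd2 gate and -0.48 (-0.68 to -0.29) in the Lhx6 Nxph1 gate.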

How the results depend on the processing

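With 1 library per group, no replicate could be left out, and depth limits what could be seen: 60 UMIs give wide counting intervals. No paired analysis was possible because each group has 1 library and the labels carry no replicate numbers. The share of Tshz1 Foxp2 nuclei in the control and the MIP library was 2.68% and 2.63% under a stricter gate, 10.7% and 10.1% under a looser one, 6.89% and 5.77% with at least 1500 genes per nucleus, 9.35% and 8.55% among nuclei with Gad1 or Gad2, and 3.97% and 3.60% after thinning. Without marked doublets the control share was 4.83%. Settings added after seeing the data gave 3.21% and 3.47% for main-cluster members, 4.02% in the control for the whole main cluster, and 6.81% in the control without low-depth clusters. The log2 ratio of the shares was -0.26 with at least 1500 genes, 0.11 for main-cluster members, 0.28 for the whole main cluster and -0.32 without low-depth clusters. Genes lower in the MIP library numbered 1558 of 11893 in all selected nuclei and 964 of 9150 in main-cluster members. Within subclusters 915 of 9147 were lower. After thinning 892 were lower, in the whole main cluster 960, and at a minimum of 20 UMIs 2716, where 343 were higher. The number of genes measured differs between settings, so the counts alone do not compare them. Against the gates, 38 genes were lower without Drd1-positive nuclei, 28 without marked doublets and 140 in main-cluster members, where 150 were higher. Of 245 values of the 23 named genes, 170 stayed within their interval, 67 moved further and 8 changed sign. Bnc2 was at -1.71 in the whole main cluster, -2.30 in main-cluster members and -0.33 within subclusters. Ttr was at -0.88, -1.03 and -1.20 in the same order. Ttr was also at -0.60 under the stricter gate and -0.99 without marked doublets. Most UMIs of Bnc2 lay outside the main cluster, and the cause of the changed signs was not tested. For 30 genes named in main-cluster members, each subcluster was left out in turn, a setting added after seeing the data: of 180 values 3 changed sign, Ndst4 to -0.22 without subcluster 7, and Pax6 to -0.091 and Bhlhe41 to -0.28 without subcluster 1. Scaling by the median of ratios shifted all ratios by -0.03.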

Other observations

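A further 4 response lists were measured in main-cluster members. None of 15 immediate early genes was higher in the MIP library and 5 were lower, with a median log2 ratio of -0.08, while in the Drd1 gate 3 of 19 were higher and 2 lower. Over all genes measured, 4.17% were higher and 15.99% lower in main-cluster members, and 3.52% and 17.0% in the Drd1 gate. Of 13 genes of the integrated stress response none was higher and 3 were lower, with a median of -0.36. Of 11 hypoxia response genes none was higher and 2 were lower, with a median of -0.33, and of 11 heat shock and chaperone genes none was higher and 2 were lower, with -0.37. Over all Tshz1 Foxp2 nuclei, Slc7a11, a cystine transporter of the stress list, held 230 control and 52 MIP UMIs, a log2 ratio of -1.28, but 29 and 14 in main-cluster members, where the ratio was -0.35 (-1.39 to 0.61). Ankrd37, a hypoxia response gene, held 55 and 7 UMIs, a ratio of -2.11, and 24 and 2 in main-cluster members, at -2.89 (-6.01 to -0.88).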
